A study of Mus musculus with 2 samples.

Results

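Complement components and their regulators were followed in PDGFRa-positive stromal cells of mouse inguinal fat, with 1 library for the Sox9 floxed and 1 for the Sox9 PreASKO genotype. The set held 42 genes chosen by symbol: the components themselves, their receptors and inhibitors, and a group of serpins and of coagulation and fibrinolysis genes that act on the same kind of protease cascade. A row was found for 41 of them among 23647 genes, and 38 reached a mean of 1 CPM, the gene's counts scaled to a library total of 1000000. The symbol C1s had no row of its own, and the deposited table lists it as a synonym of C1s1.

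Both pools came from male mice 3 weeks old that had received doxycycline at postnatal day 1, and each library pooled 3 mice. PreASKO is the label of the Sox9 knockout. The labels do not give the driver of the deletion, and the floxed mice also received doxycycline. Cells were stained for the surface receptor PDGFRa after collagenase digestion of the fat pad. With 1 library per genotype no replicate was available, so the genotypes were not tested against each other, and every interval covers counting error only.

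The complement system is a cascade of blood and tissue proteases that tags surfaces with fragments of C3 and C4 and can end in a membrane pore. It starts through C1q bound to antibody or other ligands (classical), through carbohydrate-binding lectins, or through slow turnover of C3 amplified by factor B (alternative). The liver makes most circulating components, but fibroblasts of many tissues make C3, C4, C1r, C1s and the C1 inhibitor, while tissue macrophages are a main source of C1q and carry the receptors for the released fragments C3a and C5a.

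Total counts were 61761645 (floxed) and 37597048 (PreASKO). Sox9, the targeted gene, stood at 28.6 CPM (floxed) and 17.0 CPM (PreASKO). Xist, a transcript of the inactive X chromosome of females, stood at 3.24 CPM (floxed) and 745 CPM (PreASKO) while the labels call both pools male, and Ddx3y, a gene of the Y chromosome, stood at 40.6 and 39.5 CPM (ratio 0.973). What these values say of the make-up of the pools was not tested. Of 12 fibroblast markers, 9 had a row, and these summed to 16862 CPM (floxed) and 15407 CPM (PreASKO), with none at 0; Pdgfra itself stood at 716 and 603 CPM, and Col1a1, Col1a2 and Dcn were not analysed here. Of 16 macrophage markers, 15 had a row (Adgre1 was not analysed here). All 14 averaging 1 CPM or more were higher in PreASKO. Their list summed to 1201 CPM (floxed) and 2289 CPM (PreASKO), a ratio of 1.91 (95% interval 1.89 to 1.92), with none at 0. In bulk RNA, more cells of a type and more RNA per cell cannot be told apart.

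The complement set was divided by the cell type usually credited with each product. The 11 genes usually made by macrophages had a median log2 ratio, PreASKO over floxed, of 0.71, and 10 of them were higher in PreASKO. The 15 measured genes usually made by fibroblasts had a median of 0.13, with ratios between 0.872 and 1.51. Those of the macrophage-made genes ran from 0.866 to 2.15, so these ranges overlap. The 12 measured genes of mixed, endothelial or other source had a median of 0.17, with ratios between 0.384 and 3.89 (summed ratio 0.936). Summed, the macrophage-made genes stood at 1141 CPM (floxed) and 1826 CPM (PreASKO), at a ratio of 1.60, and the fibroblast-made genes at 10409 and 11856 CPM (ratio 1.14). The larger ratios in the first group came with the macrophage marker list at a ratio of 1.91, and the part of macrophage RNA in them was not tested.

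Over all 38 measured genes, 28 had a log2 ratio above 0, against 45.5% of all 13684 genes tested, and the median was 0.22 against -0.04. On the log2(CPM + 1) scale, which understates differences of low genes, 4 were at least 2-fold higher in PreASKO, against a background of 2.11%, and none was 2-fold lower, against 1.52%. These 4 were C1qc, C3ar1, C5ar1 and C6. At 1.5-fold, 12 were higher, against 7.89% of all genes, and 1 was lower, against 8.18%. Of the 31 genes averaging 5 CPM or more, 22 lay within 1.5-fold. The share of all genes within 1.5-fold was not computed at 5 CPM. At 1 CPM, only 7.89% of all genes were higher and 8.18% lower by 1.5-fold, so the 22 do not show a stable set. Among the 38, Cd46 and Masp1 reached 1 CPM in floxed only and Masp2 in PreASKO only, so their presence in these counts depends on the library in which they were the higher.

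**Figure D1:**
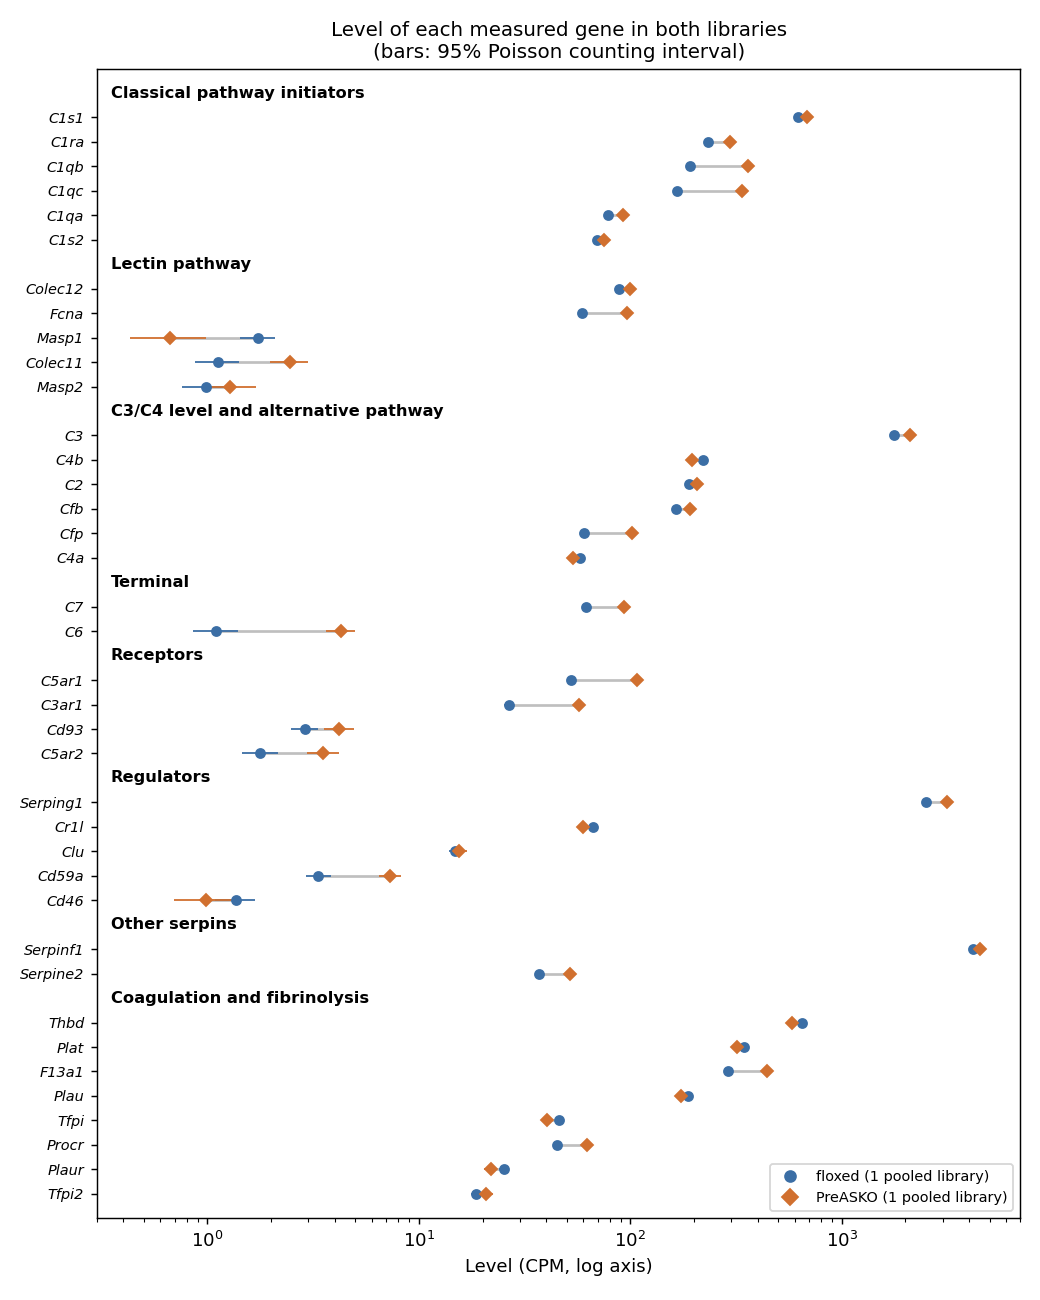
Level of the 38 measured genes in CPM (log axis) in the floxed (circles) and PreASKO (diamonds) library, grouped by role, with 95% Poisson counting intervals as bars. Levels run from Serpinf1 at 4169 and 4479 CPM down to genes near 1 CPM such as Masp2, and the widest gaps between symbols among abundant genes belong to C1qb, C1qc, C5ar1 and C3ar1.

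The C1q chains, which start the classical pathway, differed in ratio among themselves. C1q is built from equal numbers of A, B and C chains, the products of C1qa, C1qb and C1qc. C1qb stood at 190 CPM (floxed) and 360 CPM (PreASKO), a ratio of 1.89 (95% interval 1.84 to 1.93). C1qc stood at 167 CPM (floxed) and 337 CPM (PreASKO), a ratio of 2.03 (1.97 to 2.08). C1qa stood at 78.3 CPM (floxed) and 92.7 CPM (PreASKO), a ratio of 1.18 (1.13 to 1.24). The B and C chain genes stood near the ratio of the summed macrophage markers, 1.91, while the interval of C1qa lay below both of theirs.

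Per length, C1qa was also the lowest of the chains in both libraries. It stood at 75.3 CPM per kb of transcript in floxed and 89.2 in PreASKO, C1qb at 175 and 330, and C1qc at 138 and 280. The per-length level of C1qb over C1qa was 2.33 (95% interval 2.25 to 2.41) in floxed and 3.71 (3.57 to 3.85) in PreASKO. That of C1qb over C1qc was 1.26 (1.23 to 1.30) and 1.18 (1.15 to 1.21), so the relation between B and C chain transcripts moved little. The lower ratio of C1qa appeared in both deposited count columns: 1.28 in the raw and 1.15 in the repeat-distributed count, against 1.96 and 1.90 for C1qb and 2.39 and 1.95 for C1qc. None of the 3 transcripts shared a 50-base window with a transcript of another gene in the GENCODE vM21 annotation.

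**Figure D2:**
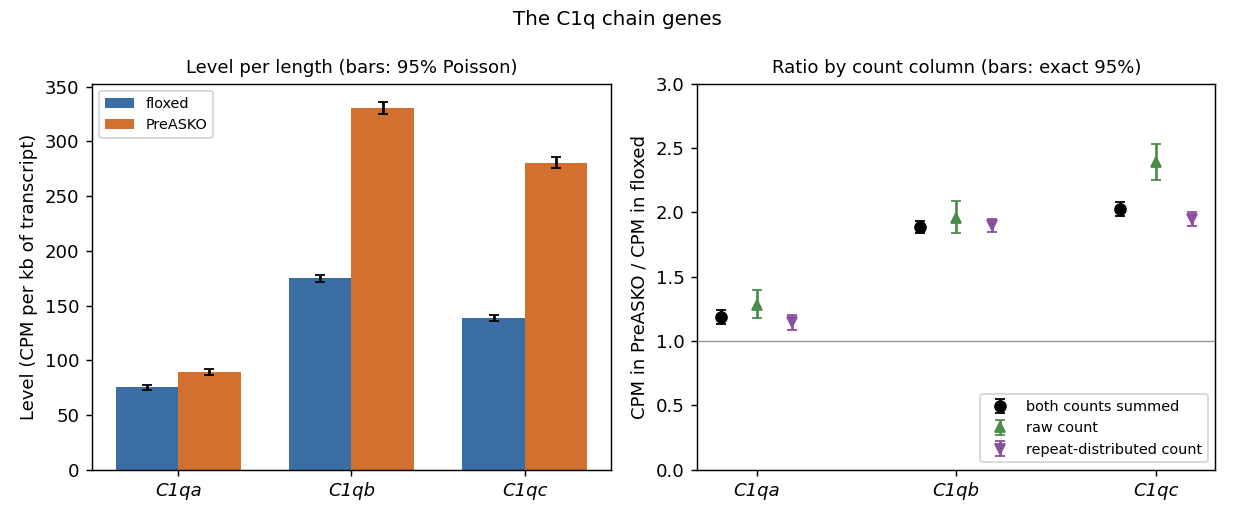
Left, level of the C1q chain genes in CPM per kb of transcript in floxed and PreASKO, with 95% Poisson counting intervals; right, ratio of PreASKO to floxed CPM by count column, with exact 95% counting intervals. C1qa is the lowest in both panels, at ratios of 1.18, 1.28 and 1.15, whereas C1qb and C1qc lie between 1.89 and 2.39.

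The chain genes lie side by side on chromosome 4 (mm10), C1qb at 136880126 to 136886200, C1qc at 136889801 to 136892936 and C1qa at 136895916 to 136898844. The 250 bases before the annotated start of C1qb and C1qc are shown because these neighbours had like ratios; C1qa has no entry in the RefSeq promoter table. They are given 5′ to 3′ on the minus strand (RefSeq, GRCm38.p6) as chr4:136886201-136886450 and chr4:136892915-136893164. Capitals mark matches on either strand to GAGGAA, the core of the site bound by the myeloid factor PU.1, TTCCTC being its reverse complement. The first bases of the gene span of C1qc overlap its window, since the span ends at 136892936.
C1qb: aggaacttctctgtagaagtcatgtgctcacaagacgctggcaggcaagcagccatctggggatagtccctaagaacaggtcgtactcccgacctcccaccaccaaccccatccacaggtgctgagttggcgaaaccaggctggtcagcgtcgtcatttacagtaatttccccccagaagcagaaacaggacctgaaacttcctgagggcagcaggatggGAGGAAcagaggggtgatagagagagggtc
C1qc: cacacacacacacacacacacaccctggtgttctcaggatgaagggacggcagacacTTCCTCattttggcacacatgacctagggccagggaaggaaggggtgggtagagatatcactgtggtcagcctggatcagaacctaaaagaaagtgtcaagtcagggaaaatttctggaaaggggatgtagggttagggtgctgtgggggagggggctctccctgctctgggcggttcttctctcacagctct
C1qb and C1qc held 1 match each, which begins 30 and 193 bases before the start. Such a match stood in 23.3% of all 32851 windows of this length in the table. It stood in 9 of the 34 windows of members (26.5%), near that share. These were 6 of 11 windows of macrophage-made, 1 of 10 of fibroblast-made and 2 of 13 of mixed, endothelial or other members. The window of Plaur, a gene lower in PreASKO, is among the 6. Of the 41 genes, 27 had a window. These matches describe letters and not binding.

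The proteases that C1q activates barely differed. C1s1, which encodes the serine protease that cleaves C4 and C2, stood at 621 CPM (floxed) and 682 CPM (PreASKO), at a ratio of 1.10. C1ra, which activates it, stood at 234 and 295 CPM (1.26), and the paralog C1s2 at 69.3 and 75.4 CPM (1.09). Per length, C1s1 exceeded C1s2 by 8.11 times in floxed and 8.17 times in PreASKO. Assignment between these relatives is uncertain, since C1s1 shares 24.3% of its 50-base windows with C1s2 and C1ra 48.02% with C1rb. The raw count alone, which held 0.25% of C1s1 counts in floxed, put C1s1 at a log2 ratio of -0.89, and it put C1ra at 1.08.

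Lectin pathway genes were scarce apart from 2 members. Fcna, encoding ficolin-A, a lectin of macrophages, stood at 59.2 CPM (floxed) and 95.9 CPM (PreASKO), a ratio of 1.62 (1.55 to 1.70). Colec12, a scavenger receptor collectin, stood at 88.4 and 99.7 CPM (ratio 1.13). Masp1 (1.73 and 0.665 CPM), Masp2 (0.988 and 1.28 CPM) and the collectin gene Colec11 (1.12 and 2.45 CPM) were near the minimum mean of 1 CPM. Masp1, with 107 and 25 counts, had a ratio of 0.384 (0.238 to 0.598). Colec11, with 69 and 92 counts, had a ratio of 2.19 (1.59 to 3.04). Mbl2, encoding a liver mannose-binding lectin, had 0 counts in floxed and 1 in PreASKO; a count of 0 allows up to 0.0486 CPM in floxed. Masp1, Masp2 and Colec11 were thus low in both libraries and Mbl2 at most a trace, unlike Fcna and Colec12.

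The Fcna window is shown because it held the most GAGGAA matches of any member, 3, of which the nearest to the start adjoins the one before it. It lies at chr2:25627975-25628224 on the minus strand (RefSeq, GRCm38.p6), before an annotated start that falls inside the span of the gene, and capitals mark the matches.
Fcna: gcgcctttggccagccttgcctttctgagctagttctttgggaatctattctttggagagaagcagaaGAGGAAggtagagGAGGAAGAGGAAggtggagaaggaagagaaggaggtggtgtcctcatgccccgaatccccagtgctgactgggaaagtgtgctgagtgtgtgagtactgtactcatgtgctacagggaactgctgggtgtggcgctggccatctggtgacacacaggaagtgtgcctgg

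C3 dominated the steps at which the routes meet, and no gene of this level differed by 2-fold. C3 (chromosome 17, 57203967 to 57228136, mm10), the protein that every route cleaves, stood at 1774 CPM (floxed) and 2103 CPM (PreASKO), a ratio of 1.19 (1.17 to 1.20). By CPM it ranked 44 among all genes in floxed and 38 in PreASKO, and per kb of transcript it stood at 345 and 409 CPM, above the other genes of this level. The raw count alone, which held 0.38% of C3 counts in floxed, put its ratio at 1.78 (1.56 to 2.03). The authors' deposited fold change for C3 was 1.11. C4b, the classical C4 gene of the mouse, stood at 219 CPM (floxed) and 195 CPM (PreASKO), a ratio of 0.890 (0.865 to 0.916). C4a, known as the gene of the sex-limited protein, stood at 57.7 CPM (floxed) and 53.3 CPM (PreASKO), a ratio of 0.923 (0.874 to 0.976).

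The C4 transcripts share 35.2% of their 50-base windows with each other, and the raw count alone turned both directions, from log2 ratios of -0.11 and -0.17 to log2 ratios of 0.54 for C4a and 0.76 for C4b, so no direction is drawn for them. The per-length level of C4b over C4a was 3.80 in floxed and 3.66 in PreASKO.

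Among the convertase genes, C2, whose product pairs with C4b, stood at 190 CPM (floxed) and 206 CPM (PreASKO), at a ratio of 1.08, and its log2 ratio was -0.03 in the repeat-distributed count alone against 0.12. Cfb, which encodes factor B of the alternative pathway, stood at 165 and 191 CPM (1.15). Counts of these neighbours are uncertain, since the annotated transcript Gm20547 shares 58.0% of the windows of C2 and 81.4% of those of Cfb. Cfp, encoding properdin, a stabilizer of the alternative convertase made by myeloid cells, stood at 60.3 CPM (floxed) and 102 CPM (PreASKO), a ratio of 1.68 (1.61 to 1.76). Cfp lies on the X chromosome, and the libraries differ in Xist (3.24 and 745 CPM); the part of this in the Cfp ratio was not tested.

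Of the genes of the membrane pore, C7 had the highest level, also per length. It stood at 61.9 CPM (floxed) and 93.5 CPM (PreASKO), a ratio of 1.51 (1.44 to 1.58), the highest among the fibroblast-made genes. C6, its neighbour on chromosome 15 at a distance of 184 kb, stood at 1.10 CPM (floxed, 68 counts) and 4.28 CPM (PreASKO, 161 counts), a ratio of 3.89 (2.91 to 5.24). This was the highest ratio of the measured genes, at a low level: its log2 ratio was 1.33, and 0.61 at a pseudocount of 5. C8g, the gamma chain of C8, had 71 and 19 counts and fell below the minimum mean.

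The anaphylatoxin receptors, which sense C3a and C5a on myeloid cells, were the group with the highest summed ratio. C3ar1 stood at 26.6 CPM (floxed) and 57.1 CPM (PreASKO), a ratio of 2.15 (2.01 to 2.29). C5ar1 stood at 52.2 CPM (floxed) and 107 CPM (PreASKO), a ratio of 2.05 (1.96 to 2.15). C5ar2, the other C5a receptor gene and a neighbour of C5ar1 on chromosome 7, had 1.78 CPM (floxed) and 3.54 CPM (PreASKO), a ratio of 1.99 (1.53 to 2.58). These ratios stood beside 1.91 for the summed macrophage markers and 2.04 for Csf1r, the macrophage growth factor receptor gene. In the raw count alone C5ar2 had 27 counts in floxed and 0 in PreASKO, the other direction, and C5ar1 had 9 and 5. Cd93, a C-type lectin receptor of endothelial and myeloid cells, was low at 2.88 and 4.20 CPM (1.46), with a log2 ratio of -0.15 in the repeat-distributed count alone against 0.42.

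The windows of C3ar1 and C5ar1 are shown as those of the receptor genes that passed 2-fold; neither held a GAGGAA match. C6, the other gene past 2-fold without one, held none of the 5 motifs searched and is not shown. C3ar1 (chr6:122856158-122856407, minus strand, RefSeq GRCm38.p6) held a match to TGANTCA, the AP-1 site, which stood in 6.75% of all windows. C5ar1 (chr7:16259339-16259588, minus strand) held a match to GAAANNGAA, taken from the interferon-stimulated element, which stood in 7.13%. The C5ar1 window, its match included, lies mostly inside the span of the gene, which ends at 16259540. The matches are in capitals, that of C5ar1 on the reverse strand.
C3ar1: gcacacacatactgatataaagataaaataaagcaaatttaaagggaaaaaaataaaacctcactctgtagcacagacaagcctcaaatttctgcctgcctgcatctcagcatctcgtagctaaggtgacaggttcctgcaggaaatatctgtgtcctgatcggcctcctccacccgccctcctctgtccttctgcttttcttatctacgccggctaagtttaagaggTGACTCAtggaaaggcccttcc
C5ar1: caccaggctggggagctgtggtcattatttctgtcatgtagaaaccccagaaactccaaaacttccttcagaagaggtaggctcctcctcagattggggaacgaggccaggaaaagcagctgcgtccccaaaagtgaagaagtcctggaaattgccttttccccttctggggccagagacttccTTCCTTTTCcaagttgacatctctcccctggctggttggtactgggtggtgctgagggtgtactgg

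**Figure D3:**
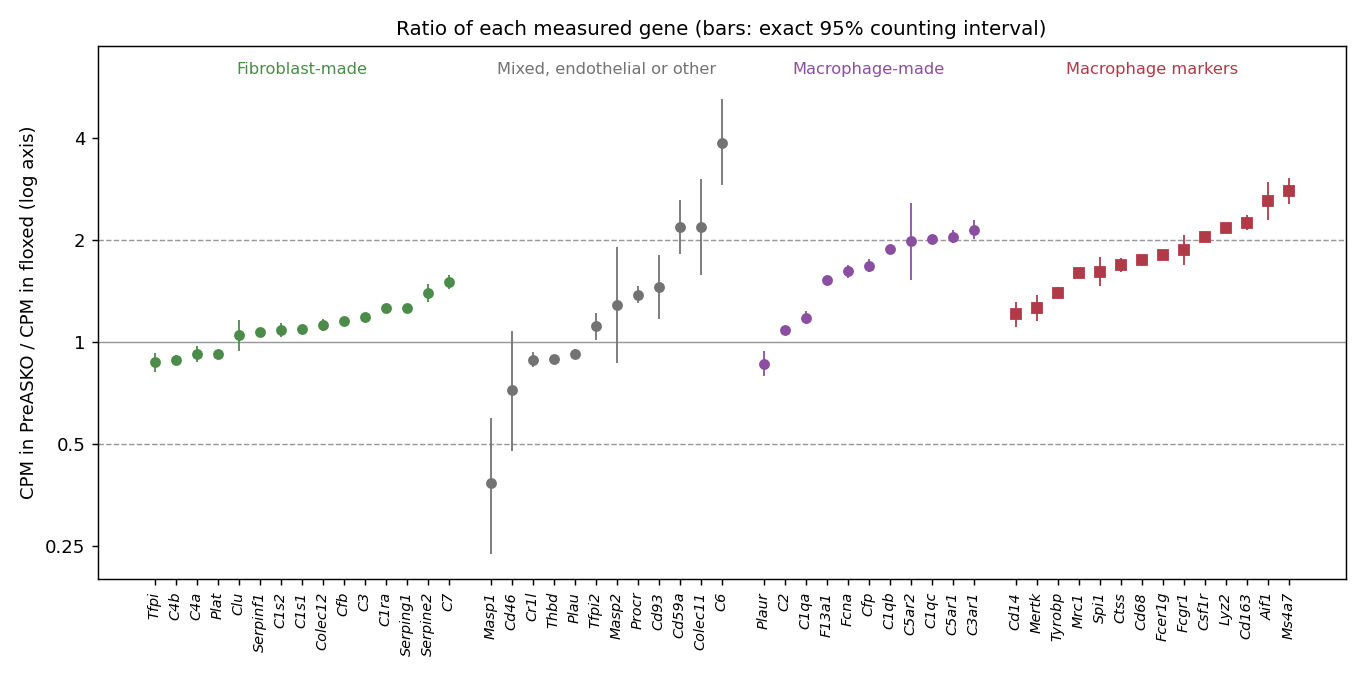
Ratio of PreASKO to floxed CPM (log axis) of the 38 measured genes, by the cell type usually credited with the product, and of 14 macrophage markers, with exact 95% counting intervals as bars and dashed lines at 2-fold. Fibroblast-made genes lie between 0.872 and 1.51, macrophage-made genes between 0.866 and 2.15 and macrophage markers between 1.21 and 2.80.

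Macrophage-made genes were not uniform. Besides C1qa, the lower ones were C2 at a ratio of 1.08 and Plaur at 0.866. Other cells also make C2 and Plaur, and the part of this in their ratios was not tested. F13a1, the coagulation factor XIII A chain, which resident macrophages make, stood at 290 CPM (floxed) and 443 CPM (PreASKO), a ratio of 1.52 (1.49 to 1.56), with a log2 ratio of -0.15 in the raw count alone, which held 0.173% of its floxed counts. The measured macrophage markers spread too, from Cd14 at a ratio of 1.21 and Mertk at 1.26 to Ms4a7 at 2.80, all higher in PreASKO. C1qa at 1.18 lay just below the lowest of them, and C2 and Plaur lay further below. Cx3cr1, a marker under the minimum mean, stood at 0.777 CPM (floxed) and 0.638 CPM (PreASKO), a ratio of 0.821.

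Regulators were led by the C1 inhibitor. Serping1, whose product blocks C1r, C1s and the lectin pathway proteases, stood at 2504 CPM (floxed) and 3160 CPM (PreASKO), at a ratio of 1.26, and ranked 26 and 19 among all genes by CPM. Per length it exceeded C1s1 by 6.72 times in floxed and 7.73 times in PreASKO. Cr1l, the rodent membrane regulator known as Crry, stood at 66.9 and 59.4 CPM (0.888). Clu, encoding clusterin, stood at 14.8 and 15.5 CPM (1.05). The C1 inhibitor was thus the only regulator of this group above 100 CPM in either library.

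Cd59a, which encodes an inhibitor of the membrane pore, stood at 3.35 CPM (floxed, 207 counts) and 7.34 CPM (PreASKO, 276 counts), a ratio of 2.19 (1.82 to 2.64). It stayed short of 2-fold on the log2(CPM + 1) scale at 0.94 and passed it at a pseudocount of 0.1. Cd46, a membrane cofactor known in the mouse mainly from testis, was near the minimum mean of 1 CPM, at 1.36 and 0.984 CPM. Cfi, the protease that cuts C3b and C4b with the help of such cofactors, had 1 count in floxed and 0 in PreASKO, and a count of 0 allows up to 0.0798 CPM there. Factor I transcript was thus not detectable above a trace in these libraries, while C3 was abundant.

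The other serpins included the gene with the highest level of the set, also per length. Serpinf1, encoding pigment epithelium-derived factor, a secreted serpin without protease inhibitor activity, stood at 4169 CPM (floxed) and 4479 CPM (PreASKO), at a ratio of 1.07 and ranked 11 and 9 among all genes by CPM; per kb of transcript it stood at 2276 and 2445 CPM. Serpine2, encoding protease nexin-1, an inhibitor of thrombin and plasminogen activators, stood at 37.2 and 52.1 CPM (1.40), with a log2 ratio of -0.44 in the raw count alone, which held 1.87% of its floxed counts.

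Of the 8 coagulation and fibrinolysis genes, 5 were lower in PreASKO, against 54.5% of all genes tested, a share near the background. Their median log2 ratio was -0.11, and none differed by 2-fold. Thbd, encoding thrombomodulin, had the highest level of them, also per length, at 647 CPM (floxed) and 579 CPM (PreASKO), at a ratio of 0.895. Plat and Plau, the tissue-type and urokinase plasminogen activators, stood at 347 and 321 CPM (0.927) and at 188 and 174 CPM (0.924). Plaur, the urokinase receptor gene, stood at 25.3 and 21.9 CPM. Directions of Plat, Plau and Plaur turned in the raw count alone, at log2 ratios of 0.04, 0.14 and 0.71. The repeat-distributed count alone put Plau at a log2 ratio of -0.71. It put Thbd at a ratio of 0.610 (0.588 to 0.633), against 0.900 in the raw count alone.

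Genes restraining tissue factor and thrombin went either way. Tfpi, the tissue factor pathway inhibitor gene, stood at 46.2 and 40.3 CPM (ratio 0.872), and its relative Tfpi2 at 18.7 and 20.9 CPM (1.12). Procr, the endothelial protein C receptor gene, stood at 45.0 CPM (floxed) and 62.2 CPM (PreASKO), at a ratio of 1.38, and its log2 ratio turned from 0.46 to -0.07 in the repeat-distributed count alone. Thbd at this level stood beside low endothelial markers, since Pecam1 had 2.14 and 4.15 CPM and Cdh5 3.63 and 7.42 CPM. The 12 endothelial markers summed to 244 CPM (floxed) and 255 CPM (PreASKO), with none at 0; Tek, at 154 and 147 CPM, and Eng, at 67.8 and 65.0 CPM, held most of it. Of the 10 endothelial markers averaging 1 CPM or more, 8 were higher in PreASKO (45.5% over all genes), with a median log2 ratio of 0.69. At least 2-fold, 3 were higher (2.11% over all genes): Kdr at a ratio of 2.22, Esam at 6.57 (0.324 and 2.13 CPM) and Erg at 4.55 (0.421 and 1.92 CPM). Esam, Erg, Egfl7 and Vwf, all among the 8, reached 1 CPM in PreASKO only. Their presence in these counts thus depends on the library in which they were the higher. Of the 12 measured genes of the mixed or endothelial group, 7 were higher in PreASKO (45.5% over all genes) and 5 lower (54.5%). C6, Cd93, Cd59a and Procr were among the higher and Thbd among the lower, and the group summed to a ratio of 0.936. The part of the endothelial markers in these ratios was not tested.

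Neighbouring members had like ratios in some cases and not in others. Of the 41 genes, 20 lay within 200 kb of another member, in 8 groups. C5ar2 and C5ar1 stood at 1.99 and 2.05, and C1s1 and C1s2 at 1.10 and 1.09. Against these, C6 and C7 stood at 3.89 and 1.51, Thbd and Cd93 at 0.895 and 1.46, and C1qa at 1.18 beside C1qc at 2.03, which lies 2.98 kb away from it. C1s1 shares 24.3% of its 50-base windows with C1s2, and the raw count alone put them at log2 ratios of -0.89 and 0.22. In the raw count alone C5ar2 had 27 counts in floxed and 0 in PreASKO, and C5ar1 had 9 and 5.

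Complement genes outside the set showed a like spread. Of 25 such genes, 20 had a row and 16 a mean of at least 1 CPM; 11 were higher and 5 lower in PreASKO, against 45.5% of all genes above 0. At least 2-fold, 2 were higher, against 2.11% of all genes, and none was lower, against 1.52%. Their median log2 ratio was 0.42, against -0.04 over all genes. Vsig4, Colec10 and Csmd1, all among the 11 higher, reached 1 CPM in PreASKO only. Their presence in these counts and this median thus depends on the library in which they were the higher. Hc, which encodes C5, was among those at least 2-fold higher, at 1.04 and 6.995 CPM, a low level; it fell outside the naming rule and was chosen after its values were seen. The membrane regulator gene Cd55, also chosen in that way, stood at 233 and 243 CPM. Of 31 further coagulation and fibrinolysis genes, 25 had a row and 11 were measured, 6 higher (45.5% over all genes) and 5 lower (54.5%), none by 2-fold, with a median of 0.14.

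The receptors and C1q genes were not alone in being higher in PreASKO. The 8 interferon-response genes, listed because several complement genes are known interferon targets, were all higher and summed to 376 CPM (floxed) and 739 CPM (PreASKO), at a ratio of 1.97, with none at 0. Of complement genes known as such targets, C1s1 stood at a ratio of 1.10, Cfb at 1.15, Serping1 at 1.26 and C4b at 0.890. The raw count alone turned C1s1 and C4b, to log2 ratios of -0.89 and 0.76, and Cfb had 0 raw counts in both libraries. Markers of neutrophils summed to 2.74 and 3.43 CPM, with S100a8 at 0 counts in floxed, and those of T, NK and B cells to 2.75 and 2.50 CPM, with Nkg7 at 0 counts in floxed. Mesothelial markers summed to 7.27 and 6.52 CPM, with Msln at 0 counts in floxed, and mature adipocyte markers to 101 and 47.1 CPM, with Lep at 0 counts in floxed. The part of any of these in the complement ratios was not tested.

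**Figure D4:**
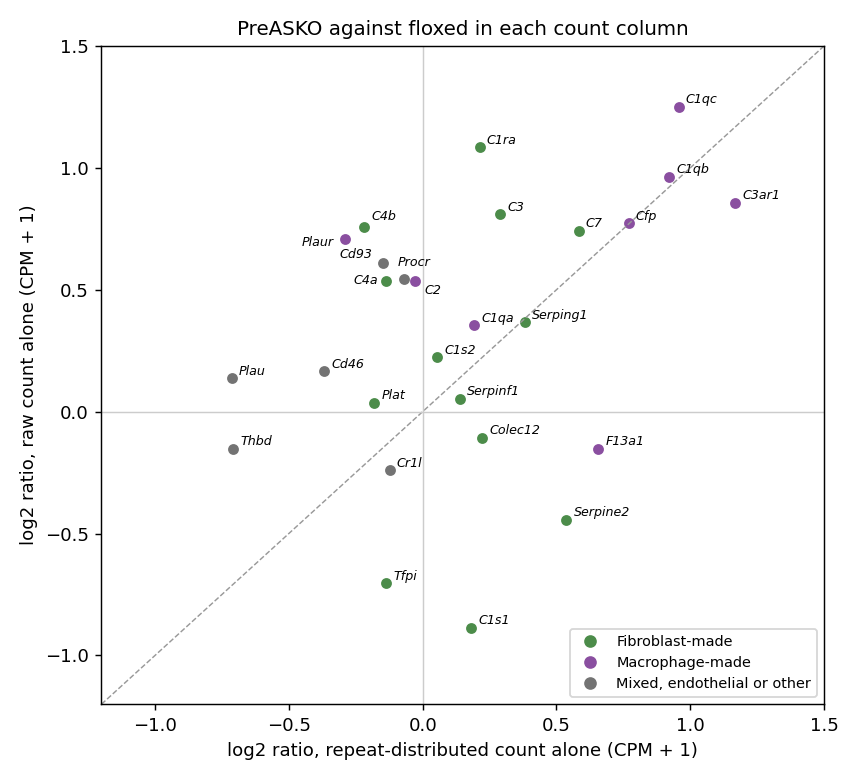
log2 ratio of PreASKO to floxed from the raw count alone (vertical) against that from the repeat-distributed count alone (horizontal), on the log2(CPM + 1) scale, for the 27 genes averaging 1 CPM or more in both columns; the dashed line marks equal values. C1qb, C1qc, C3ar1 and Cfp lie high on both axes, at 0.77 or above, whereas C1s1, F13a1, Serpine2 and Plaur lie on opposite sides of 0.

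The deposited columns gave different values for many fibroblast-made and coagulation genes. The measured genes of the set took 1.25% of all counts in floxed and 1.46% in PreASKO. In 18 of the 41 genes the raw count held under 5% of the floxed counts. Of the 27 genes plotted by column, 10 changed direction between the raw count alone and the sum, and Cfp, C1qb and C1qc did not, with raw log2 ratios of 0.77, 0.96 and 1.25.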

How the data were processed

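RNA with poly(A) tails from 2 pooled libraries was analysed at gene level. Reads were placed on mm10, as the submitters' processing notes name it, and the gene notes in the deposited table cite BestRefSeq and Gnomon models. The sources used here give no aligner, counting program or strand use, so antisense overlap cannot be told apart. The deposited table gives a raw count in whole numbers and a repeat-distributed count, treated as an estimated count, per the file headers. The authors' deposited fold change is a ratio of PreASKO over floxed whose scaling is not stated.

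Both counts were summed per gene, rows sharing a gene ID were added (21 IDs), and 24 names deposited as dates were looked up by gene ID in RefSeq. The sum was divided by the library total of the deposited counts to give CPM. Raw counts made up 21.9% of all counts in floxed and 24.4% in PreASKO. Ratios of CPM have exact (Clopper-Pearson) 95% binomial intervals and levels have exact Poisson intervals, with estimated counts rounded and counting error alone covered, and no molecular identifiers are stated. A count of 0 was read as at most 3 counts. Log2 ratios use a pseudocount of 1 CPM and genes averaging 1 CPM or more (13684). The 2-fold cutoff is that of the series design text. CPM per kb used the longest protein-coding transcript in GENCODE vM21, a mm10 annotation, and for C4a, which has none there, its longest transcript. Coordinates are from RefSeq GRCm38.p6, the assembly behind mm10. The calculations used Python 3.11.15, numpy 2.4.6, pandas 2.3.3 and scipy 1.17.1, and were tested on simulated data.

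Full values are given for genes averaging 5 CPM or more and at least 1.5-fold, the C1q chains, C3 and the C4 genes; genes under 1 CPM are given as low. Of the other lists, the rule names genes averaging 5 CPM or more with at least 2-fold. The members, their division by role and by source cell, the marker lists and the motifs were chosen with earlier results of these data known. The division by source rests on general knowledge of these genes and not on these libraries. Nothing says whether a pool was prepared more than 1 time. A gene outside the set that met the naming rule is not reported here.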

Additional observations from a re-analysis of the deposited data

How the results depend on the processing

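The count of 4 genes at least 2-fold higher became 6 at a pseudocount of 0.1, 0 at a pseudocount of 5, 2 in the raw count alone, 5 in the repeat-distributed count alone, 6 in the authors' deposited table and 12 at a 1.5-fold cutoff. The count of 0 genes 2-fold lower became 1 (Masp1) at a pseudocount of 0.1, in the authors' deposited table and at 1.5-fold. A larger pseudocount shrinks ratios of low genes by construction, and C1qc, C3ar1 and C5ar1 lie just above 2-fold. C1ra passed 2-fold in the raw count alone, where 28 genes were measured; the cause was not tested. The median over all measured complement genes was 0.36 and that of fibroblast-made genes 0.22 in the raw count alone, against 0.22 and 0.13, and the median of macrophage-made genes was 0.81 in the authors' deposited table, against 0.71. The macrophage-made median lay between 0.65 and 0.81 and the fibroblast-made median between 0.13 and 0.22 over the alternatives run. Scaling by the median ratio of genes with at least 100 counts shifted genes by 0.037 (log2) and turned no direction. Leaving out C4a, C4b, C1s1, C1s2, C1ra, Cd59a and Cr1l as paralogs sharing sequence left 31 genes. None of the 4 genes at least 2-fold higher was among those left out, so their count could not change. C2 and Cfb, which also share sequence, were kept. The raw count alone turned the direction of 10 of 27 genes and the repeat-distributed count alone that of 3 of 38, none of them past 2-fold; the cause was not tested. Genes near 1 CPM rest on under 100 counts in PreASKO in several cases, so their ratios are imprecise. No paired analysis was possible because each genotype has 1 library.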

Other observations

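The share of a gene's counts in the raw column did not follow the sequence its transcript shares with other genes. C3, Serping1 and C5ar1 share no 50-base window with a transcript of another gene in GENCODE vM21, yet the raw count held 0.38%, 0.277% and 0.279% of their floxed counts. Thbd, also without a shared window, had 73.9% of its floxed counts in the raw column, and Plau 52.8%. C1s2, which shares 26.9% of its windows with C1s1, had 28.0%. Windows shared with intergenic copies were not searched.

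Of 41 genes with a transcript sequence in that annotation, 13 shared at least 1 window with another gene and 8 shared over 10%.

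Vsig4, a macrophage complement receptor gene, stood at 0.502 CPM (floxed) and 1.65 CPM (PreASKO). Itgam and Itgb2, which encode the chains of complement receptor 3, stood at 24.5 and 38.6 CPM (ratio 1.58) and at 19.9 and 30.8 CPM (1.55). Susd4, encoding a membrane regulator, stood at 4.58 and 2.61 CPM (0.569), and C1qbp, encoding a largely mitochondrial C1q-binding protein, at 49.8 and 32.6 CPM (0.654). These genes fell outside the naming rule and were chosen after their values were seen.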
